A study of Mus musculus with 4 samples.

Results

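The deposited table of T cells with a sequenced receptor gave each cell a cell cycle phase, S, G2M or G1, and the cells described here are those it classed as CD8 T cells. They numbered 3224 of the 17211 sorted cells, 2774 from tumours given IL-12 plasmid and 450 from tumours given control plasmid, out of 3793 cells in that table. IL-12 is a cytokine that acts on T cells and NK cells. Per the labels, either plasmid was injected into the tumour and followed by electroporation, live CD45-positive leukocytes were sorted, and the cells of 3 mice were pooled for each plasmid. The labels put the start of HER2 expression in the mammary tissue of the mice at 1 month of age, the series title speaks of triple-negative breast tumours, and the library names carry 4T1, a mouse mammary carcinoma line; the tumours are called mammary tumours here. Each plasmid has 1 expression library, read from the 5′ side of transcripts, and 1 receptor library. The mice of a pool cannot be told apart, replicates are lacking for every difference, and nothing was tested. The intervals given are exact 95% intervals for counting error only.

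The cell cycle runs from G1, in which a cell grows, through S, in which DNA is copied, to G2 and mitosis, in which the copies are separated. Genes for DNA synthesis are expressed towards S phase and genes of the spindle and of chromosome segregation towards G2 and mitosis, and phase scores sum such lists for each cell. CD8 T cells are known for rapid division after they meet their antigen. A phase assigned from RNA is the larger of a pair of scores, not a measurement of DNA content. Here the deposited phase was S or G2M by the larger of the deposited S and G2M scores, and G1 where both lay below 0, in 3224 of 3224 cells. In 274 IL-12 cells (9.88%) and 46 control cells (10.2%) the larger score lay within 0.05 of 0, and in 1032 IL-12 and 131 control cells called S or G2M both scores were above 0. The list genes described below are the standard S and G2M lists of that kind of scoring, so their levels by phase are close to what assigned the phases and are given as a description.

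The cells were T cells by their transcripts in every phase. All 11 T cell identity genes had UMIs (unique molecular identifiers, counts of original RNA molecules) in each phase and library, and Cd3e, a subunit of the receptor complex, was seen in 98.9% to 99.0% of IL-12 cells and in 95.9% to 98.7% of control cells. Cd8b1, the CD8 beta chain, was seen in 89.3% to 93.7% of IL-12 cells and 73.5% to 84.0% of control cells across phases. Depth was alike, with a median of 6431.5 UMIs per IL-12 cell (1495 to 19603) and 6120 per control cell (2049 to 17248). The phases were also alike in depth, with medians of 6407, 6373 and 6550.5 UMIs in S, G2M and G1 IL-12 cells and 6144, 5978 and 6267 in control cells. The libraries shared 87 barcodes over all cells, 10 of them on cells described here, and cells were joined within a library. All 10 neutrophil markers also had UMIs in every phase, a point taken up with the genes that were lower in called cells.

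A larger share of IL-12 cells than of control cells was called S, and a smaller share G1. Of the IL-12 cells 1357 were called S (48.9%, interval 47.0 to 50.8), 939 G2M (33.9%, 32.1 to 35.6) and 478 G1 (17.2%, 15.8 to 18.7). Of the control cells 147 were called S (32.7%, 28.3 to 37.2), 156 G2M (34.7%, 30.3 to 39.3) and 147 G1 (32.7%). S and G2M together took 82.8% (81.3 to 84.2) of IL-12 cells and 67.3% (62.8 to 71.7) of control cells. The G2M shares had overlapping intervals, whereas the S and G1 shares did not.

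**Figure D1:**
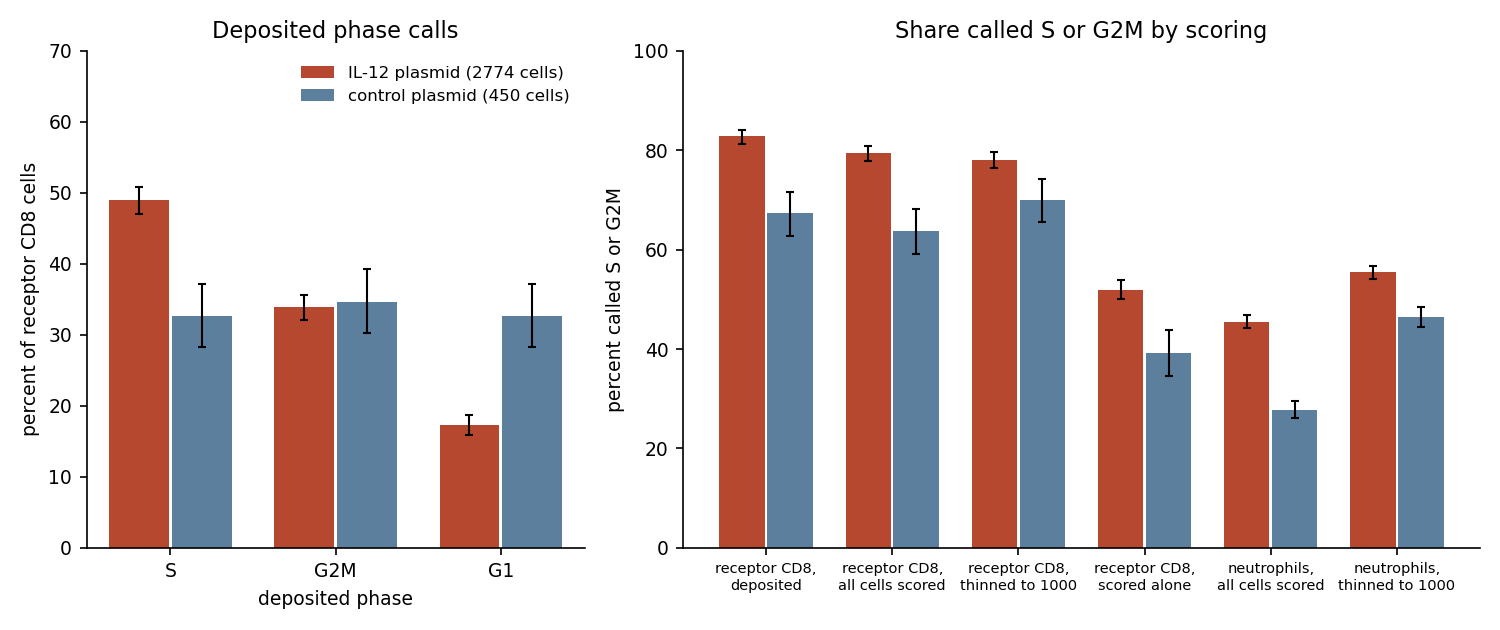
Left, percent of receptor CD8 cells (y axis) by deposited phase (x axis) in the IL-12 plasmid (red) and control plasmid (blue) libraries; right, percent called S or G2M by the deposited phase and by scorings made here, with neutrophils scored the same way. Bars are shares of cells with exact binomial 95% intervals; S took 48.9% of IL-12 and 32.7% of control cells, and scoring receptor cells alone gave 51.9% and 39.1% for S or G2M.

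The share called depended on which cells were scored together. Scores made here from the same kind of lists over all 17211 cells followed the deposited ones over the 3224 cells (Pearson r of 0.980 for S and 0.990 for G2M; the points share library, depth and list genes) and gave the same phase to 84.8% of cells, with 79.4% of IL-12 and 63.8% of control cells called S or G2M. When only the receptor cells were scored together, these shares were 51.9% (50.1 to 53.8) in IL-12 and 39.1% (34.6 to 43.8) in control cells. With each cell thinned to 1000 UMIs they were 78.0% in IL-12 and 70% in control cells. The same scoring over all cells called S or G2M in 45.5% of 5908 IL-12 neutrophils and 27.8% of 2721 control neutrophils, cells that are known not to divide once mature. It called 76.9% of IL-12 and 63.1% of control CD4 T cells and 74.8% of IL-12 dendritic cells, near the shares of the receptor CD8 cells. The order of the libraries was the same under each of these scorings, while the level was not.

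Mki67, Top2a and Pcna mark dividing cells. Mki67 encodes the Ki-67 protein that coats mitotic chromosomes, Top2a the topoisomerase that untangles replicated DNA, and Pcna the sliding clamp of the replication fork. Their promoters are shown because these 3 genes differ in the phase in which they were highest and also in the letters before their start sites. The windows are the 250 bases before the start, from RefSeq (GRCm38.p6), all on the minus strand: chr7:135716380-135716629 for Mki67, chr11:99024190-99024439 for Top2a and chr2:132253181-132253430 for Pcna. They are printed 5′ to 3′ in the direction of transcription, and capitals mark CCAAT boxes (CCAAT, or ATTGG on the other strand) and the cell cycle homology region CHR (TTTGAA, or TTCAAA on the other strand).
Mki67: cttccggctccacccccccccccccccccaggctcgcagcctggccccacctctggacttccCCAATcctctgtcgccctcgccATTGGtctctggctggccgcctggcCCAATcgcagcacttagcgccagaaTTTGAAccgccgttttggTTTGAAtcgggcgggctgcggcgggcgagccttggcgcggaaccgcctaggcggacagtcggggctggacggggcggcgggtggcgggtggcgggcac
Top2a: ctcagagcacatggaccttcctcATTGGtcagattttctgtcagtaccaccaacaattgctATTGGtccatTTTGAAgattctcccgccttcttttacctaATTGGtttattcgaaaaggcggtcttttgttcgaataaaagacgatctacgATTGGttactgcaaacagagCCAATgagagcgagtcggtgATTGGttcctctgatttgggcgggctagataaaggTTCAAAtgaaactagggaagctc
Pcna: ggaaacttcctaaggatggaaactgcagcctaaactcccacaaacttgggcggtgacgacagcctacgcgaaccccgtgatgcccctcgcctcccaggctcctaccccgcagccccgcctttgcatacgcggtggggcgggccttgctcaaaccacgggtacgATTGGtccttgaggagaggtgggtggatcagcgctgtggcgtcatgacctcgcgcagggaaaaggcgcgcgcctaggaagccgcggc
The Top2a window held 6 CCAAT boxes and 2 CHR letters, the Mki67 window 3 and 2, and the Pcna window 1 CCAAT box and no CHR. None of them held the E2F forms TTTGGCGC, TTTCGCGC, TTTCCCGC or TTTGCCGC on either strand. Of all 32851 promoter windows, 33.8% held a CCAAT box, 16.0% a CHR and 1.86% one of the E2F forms, and no motif overlapped another in the windows shown. Counted by gene, CHR letters stood before 20 of 47 G2M list genes with a window (42.6%) and 6 of 31 S list genes (19.4%), against 18.3% of all 27025 genes. The E2F forms stood before 3 G2M list genes (6.38%) and 9 S list genes (29.0%), against 2.16% of all genes. CCAAT boxes stood before 36 G2M list genes (76.6%) and 22 S list genes (71.0%), against 37.5% of all genes.

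Mki67 and Top2a were highest in G2M cells and Pcna in S cells, in both libraries. Mki67 stood at 30.1 CPM (UMIs summed over the cells of a phase and scaled to a common total) in S, 80.8 in G2M and 7.51 in G1 IL-12 cells, and at 49.6, 146.7 and 12.3 CPM in the same phases of control cells. The G2M to G1 ratio was 10.8 (7.26 to 16.6) in IL-12 and 11.9 (6.61 to 23.6) in control cells. For Top2a the levels were 47.0, 105.7 and 13.9 CPM in S, G2M and G1 IL-12 cells, against 75.9, 140.7 and 16.4 CPM in control cells, with G2M to G1 ratios of 7.62 and 8.56. Pcna stood at 126.5, 82.2 and 50.3 CPM in IL-12 and at 102.3, 81.4 and 35.95 CPM in control cells, with S to G1 ratios of 2.52 (2.15 to 2.97) and 2.85 (1.91 to 4.32). Mki67 and Top2a are G2M list genes and Pcna is an S list gene, so this order follows from how such phases are called.

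Most called cells nevertheless had no Mki67 UMI. It was seen in 16.8% of G2M, 9.29% of S and 5.23% of G1 IL-12 cells, and in 18.6%, 10.2% and 7.48% of the same phases of control cells. The G2M and G1 intervals of the control cells, 12.8 to 25.6 and 3.79 to 12.99, overlapped slightly. Top2a was seen in 29.9%, 18.9% and 9.41% of G2M, S and G1 IL-12 cells and in 32.1%, 24.5% and 7.48% of control cells. Pcna was seen in 52.8% of S and 27.0% of G1 IL-12 cells, and in 46.3% and 19.7% of control cells. Neutrophils, of lower depth (medians of 2553 UMIs for IL-12 and 2524 for control), had a Mki67 UMI in 2.83% and 3.27%, a Top2a UMI in 2.07% and 0.845% and a Pcna UMI in 14.03% and 8.16% of cells in the IL-12 and control libraries. Other classes had more: a Mki67 UMI was seen in 16.4% of IL-12 dendritic cells (median 1857 UMIs) and in 8.23% of IL-12 and 12.2% of control macrophages (medians of 7211 and 5514.5 UMIs), so the Mki67 share of G2M IL-12 cells was close to that of dendritic cells. The part of free RNA in the shares of called cells was not tested.

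**Figure D2:**
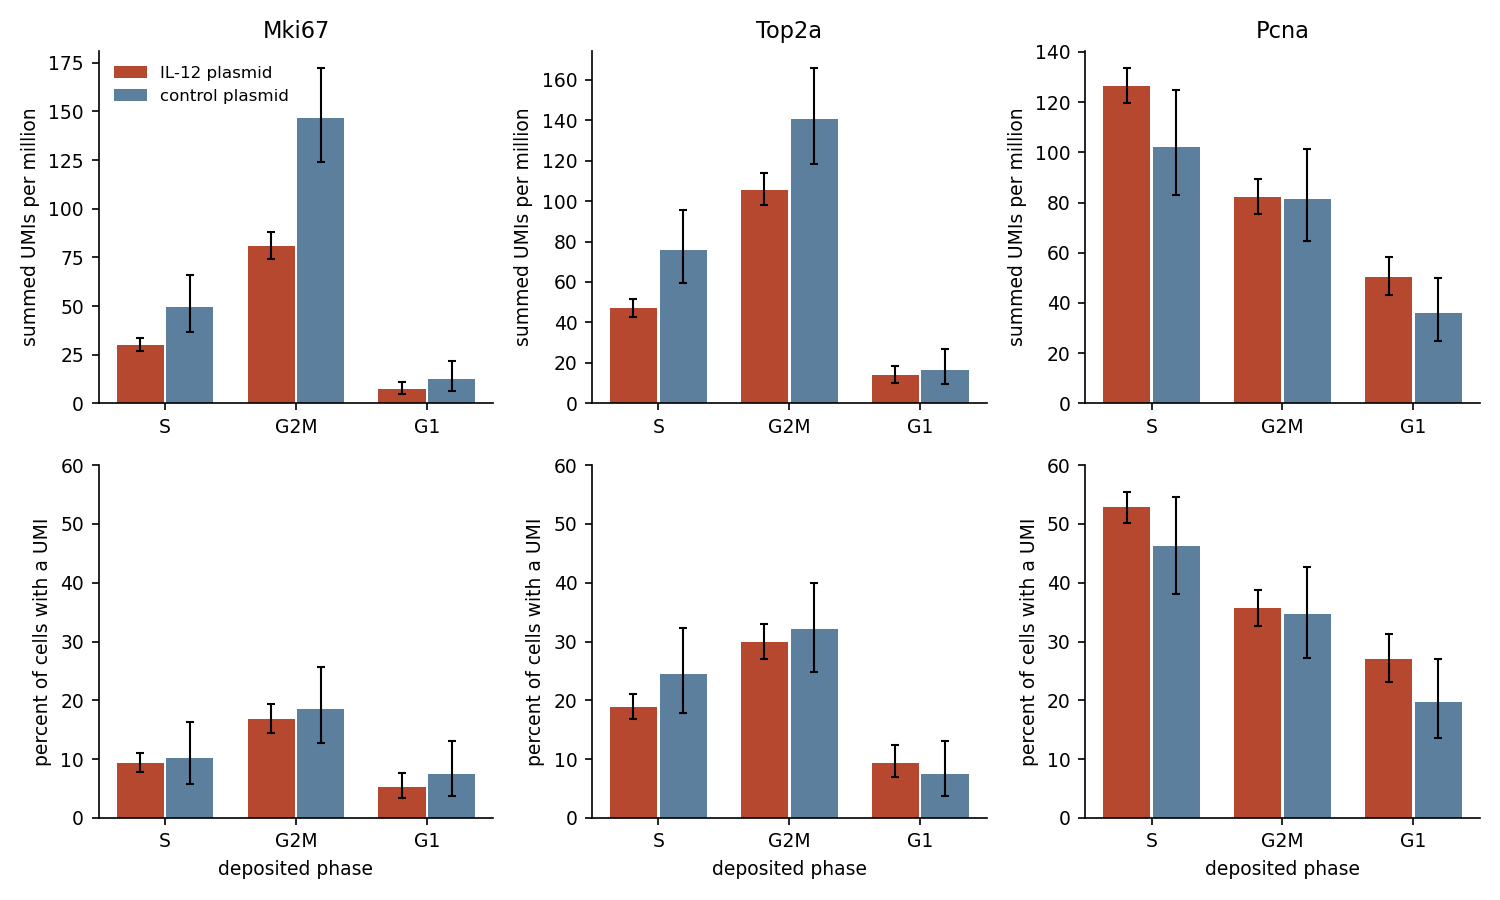
Summed level in CPM (top) and percent of cells with a UMI (bottom) of Mki67, Top2a and Pcna in cells called S, G2M and G1 (x axis) in the IL-12 plasmid (red) and control plasmid (blue) libraries, with exact 95% counting intervals. Mki67 reaches 80.8 and 146.7 CPM in G2M cells, yet at most 18.6% of the cells of any phase hold a UMI of it.

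Beyond these markers, nearly all measured genes of the scoring lists were higher in the phase they stand for. A gene was counted as measured in a contrast with 50 UMIs or more and a UMI in 5% or more of the cells of either phase, and as higher or lower past 1.5-fold. The tables hold 42 S list genes. For S over G1 in IL-12 cells 27 of 29 measured were higher, where 2.16% of all 6583 measured genes were higher; in control cells 13 of 14 were higher, against 5.08% of 4194. Their median log2 ratios were 1.62 in IL-12 and 1.35 in control cells, against 0.02 and 0.03 for all measured genes. Of the 54 G2M list genes 38 of 39 measured for G2M over G1 were higher in IL-12 cells and 14 of 17 in control cells, where 3.1% of 6608 and 5.66% of 4242 measured genes were higher. These lists are what such scores sum, and a low gene is measured only where it is high, so their counts describe the calls and say nothing further.

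Among the most abundant S list genes, Slbp, which binds histone mRNA, stood at 159.2, 117.7 and 72.2 CPM in S, G2M and G1 IL-12 cells and at 162.4, 119.6 and 98.6 CPM in control cells. Rpa2, a subunit of the single-strand DNA binding complex, stood at 120.2, 77.0 and 58.9 CPM in IL-12 and 77.0, 47.2 and 29.8 CPM in control cells. Atad2, a chromatin ATPase, was flatter, with S to G1 ratios of 1.18 and 1.27. The same grading held among G2M list genes. Hmgb2, a chromatin protein, stood at 122.3, 229.3 and 77.7 CPM in S, G2M and G1 IL-12 cells and at 121.3, 184.9 and 75.0 CPM in control cells. Cenpa, the centromeric histone, had G2M to G1 ratios of 1.94 and 1.44, and Tubb4b, a tubulin, of 2.12 and 2.05. Jpt1 was the flattest G2M list gene measured, at 1.20 (1.12 to 1.30) in IL-12 and 1.10 (0.89 to 1.35) in control cells. The steepest was Birc5, the survivin gene of the chromosomal passenger complex, at 54.8 CPM in G2M and 0.867 CPM in G1 IL-12 cells (ratio 63.3, 21.5 to 308.2, on 3 UMIs in G1), singled out after its values were seen.

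Replication and mitosis genes that the scoring lists do not hold differed less by phase. Other replication genes, 42 in the tables, were higher in S than G1 for 13 of 24 measured in IL-12 cells and 3 of 8 in control cells, and their summed level was 1.56-fold (1.48 to 1.64) and 1.51-fold (1.36 to 1.68) that of G1. Other mitosis genes, 67 in the tables, were higher in G2M than G1 for 24 of 33 in IL-12 and 6 of 16 in control cells, with summed ratios of 1.79 (1.74 to 1.84) and 1.62 (1.52 to 1.73). Dut, which removes dUTP, had S to G1 ratios of 1.67 in IL-12 and 1.48 in control cells. Pclaf, a PCNA-binding factor, stood at 43.5, 67.1 and 5.78 CPM in S, G2M and G1 IL-12 cells. Its levels were 40.1, 22.1 and 8.22 CPM in the same phases of control cells. The control levels rest on few cells. Of these UMIs 32 came from 5 S cells and 15 from 7 G2M cells with 30 or more S and G2M list genes. The other control cells stood at 7.47 CPM. In IL-12 cells with as many list genes Pclaf was also higher in S, at 641.9 against 530.4 CPM in G2M. A different peak phase in the libraries is thus not shown. Tubb5, a beta tubulin, had G2M to G1 ratios of 2.52 and 2.64, whereas Lmnb1, a nuclear lamin, stood at 0.933 and 0.905 and Ran, the GTPase of nuclear transport and spindle assembly, at 1.30 and 1.11.

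Set directly against each other, S and G2M cells separated on the scoring lists more than on other genes. Of the S list genes 16 of 30 measured were higher in S than in G2M IL-12 cells and 7 of 15 in control cells, where 0.443% of 6539 and 3.78% of 4182 measured genes were higher. Of the G2M list genes 35 of 39 and 13 of 19 were lower in S than in G2M, where 1.42% and 3.9% of all measured genes were lower. Other replication genes had summed S over G2M ratios of 0.987 (0.954 to 1.02) in IL-12 and 1.07 (0.974 to 1.18) in control cells. Other mitosis genes stood at 0.726 and 0.745. Without cells of 30 or more list genes, other replication genes were higher in S, at 659.0 against 596.6 CPM in IL-12 cells. The control levels were then 792.3 against 699.5 CPM. Within the cells left out they were also higher in S, at 4194 against 3021 CPM in IL-12 and 3814 against 2967 CPM in control cells. The near-equal sums over all called cells thus do not hold within either part.

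Summed over all called cells, histone genes whose transcripts are made during DNA copying were higher in G2M than in S cells, but close to equal without the cells that held the most list genes. The 39 replication-dependent histone genes found in the tables summed to 1245, 2284 and 691.4 CPM in S, G2M and G1 IL-12 cells, and to 1036, 1402 and 692.4 CPM in control cells. The S over G2M ratio of these sums was 0.545 (0.532 to 0.558) in IL-12 and 0.739 (0.680 to 0.802) in control cells, with 13 of 20 measured genes lower in S in IL-12 and 2 of 9 in control cells. Without cells of 30 or more list genes the sums were 797.1 CPM in S and 815.2 in G2M IL-12 cells, and 809.9 and 819.2 CPM in control cells. Hist1h2ao alone held 14467 UMIs, at 554.3, 1167 and 224.5 CPM in S, G2M and G1 IL-12 cells and 263.6, 285.4 and 127.4 CPM in control cells. H2ac8, another H2A gene, stood at 93.5, 192.7 and 40.2 CPM in IL-12 and at 56.9, 138.7 and 38.01 CPM in control cells, while the linker histone gene H1f2 was at 1.07 for both S and G2M over G1 in IL-12 cells. Histone genes of a class are near copies of each other, so the split of reads between them is uncertain.

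In IL-12 cells G1 regulators and cycle inhibitors differed little by phase. The summed ratios of G1 regulators in IL-12 cells were 1.06 for S and 1.01 for G2M over G1. None of 10 measured passed 1.5-fold either way, a count near the share of all measured genes. Of those 2.16% were higher and 2.1% lower in S, and 3.1% higher and 2.33% lower in G2M. In control cells 2 of 5 G1 regulators were higher in S and 2 of 6 in G2M, where 5.08% and 5.66% of all measured genes were. Those were Cdk4, a G1 kinase, at 2.05 (1.26 to 3.43) in S and 1.66 (0.997 to 2.80) in G2M, E2f4, a repressive E2F, at 1.58 (0.940 to 2.70) in S, and Myc, a growth regulator, at 1.86 (1.05 to 3.37) in G2M. Cycle inhibitors and quiescence genes had summed ratios of 0.915 and 0.944 in IL-12 and 0.925 and 0.988 in control cells for S and G2M over G1. Ccnd2 and Ccnd3, D-type cyclins, stood at 1.17 and 0.843 for S over G1 in IL-12 cells and at 0.935 and 1.24 in control cells. Cdkn1a, the p21 inhibitor of cyclin-dependent kinases, was at 242.8, 258.4 and 328.5 CPM in S, G2M and G1 IL-12 cells and at 176.1, 187.9 and 264.0 CPM in control cells, thus highest in G1 in both. T cell identity, exhaustion, glycolysis and CXCR3 and IL-12 signalling genes had summed S and G2M over G1 ratios of 0.962 to 1.02 in IL-12 cells and 0.936 to 1.10 in control cells. Cytotoxic effector genes stood at 1.13 and 1.04 in IL-12 and 0.936 and 1.06 in control cells, for S and for G2M over G1.

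Most Mki67 and Ccna2 UMIs came from a small number of cells. Each cell was described by how many of the 96 S and G2M list genes it had a UMI of; the median was 11 in S, 11 in G2M and 7 in G1 IL-12 cells, and 12, 11 and 8 in control cells. G1 cells reached 16 (IL-12) and 15 (control) at most. Cells with 30 list genes or more, a limit chosen after seeing the data, are called cycle-rich here; they numbered 105 IL-12 cells (3.79%, 3.11 to 4.56) and 12 control cells (2.67%, 1.39 to 4.61), with another 22 and 2 cells at 25 to 29 genes. All were called S (43 IL-12, 5 control) or G2M (62 and 7), and they made up 4.57% of the called IL-12 cells and 3.96% of the called control cells. They held 70.7% of all Mki67 UMIs in IL-12 and 75.6% in control cells, 50.4% and 50% of Top2a and 18.5% and 14.1% of Pcna UMIs, with 5.78% and 3.62% of all UMIs. Of Ccna2, the cyclin of S and G2, named after its values were seen, they held 83.7% and 88.2%.

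**Figure D3:**
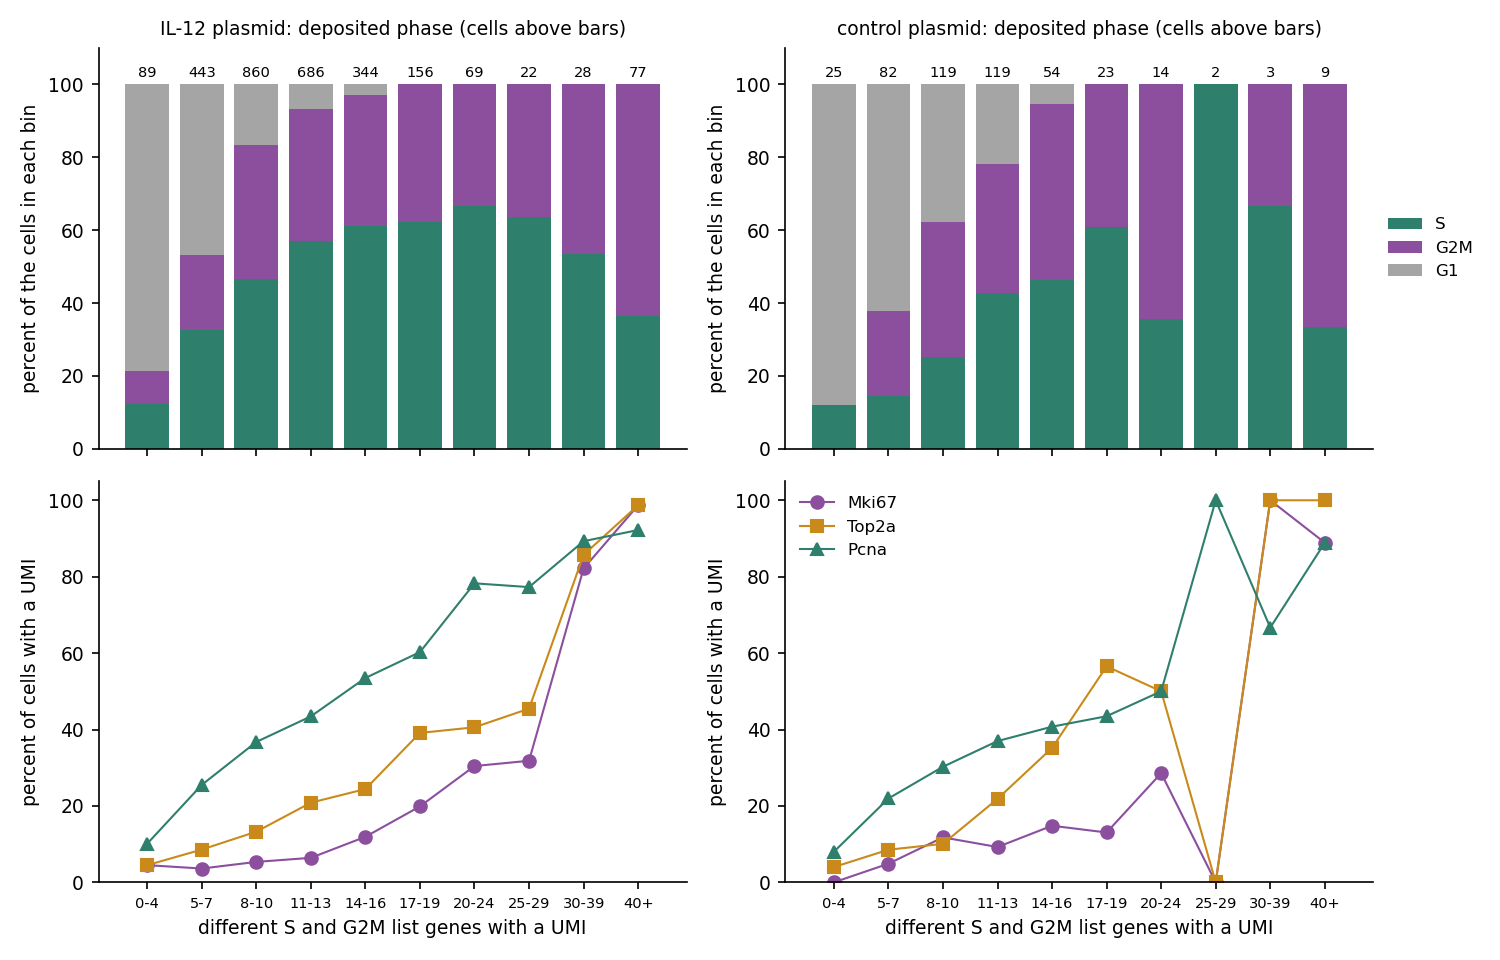
Share of each deposited phase (top) and percent of cells with a Mki67, Top2a or Pcna UMI (bottom) by the number of different S and G2M list genes in a cell (x axis), IL-12 plasmid left and control plasmid right; cell numbers stand above the bars, and control bins from 20 genes up hold under 20 cells each. In IL-12 cells Mki67 is seen in 31.8% of cells with 25 to 29 genes and 82.1% of those with 30 to 39.

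Among IL-12 cells the share with a Mki67 UMI was 5.35% at 8 to 10 list genes, 19.9% at 17 to 19, 31.8% at 25 to 29, 82.1% at 30 to 39 and 98.7% at 40 or more. Median depth was 5568, 9529, 13262.5, 9001 and 12061 UMIs in the same bins, so cells with 30 to 39 list genes were shallower than those with 25 to 29. Mki67 and Top2a are among the G2M list genes counted, and Pcna among the S list genes. Cycle-rich cells were deeper than the rest, with medians of 11609 against 6330 UMIs in IL-12 and 9035.5 against 6074.5 in control cells. The part of doublets and depth in the number of cycle-rich cells was not tested, and no doublet caller was run.

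Cycle-rich cells also stood above the others on genes that the count of list genes did not use. Mki67, which it did use, stood at 527 CPM in cycle-rich and 13.4 CPM in other IL-12 cells, and at 1467 and 17.8 CPM in control cells. Outside the scoring lists, other replication genes were 5.69-fold (5.49 to 5.90) and 4.70-fold (4.18 to 5.27) those of the other cells in IL-12 and control, other mitosis genes 5.58-fold and 7.01-fold, and replication-dependent histones 16.7-fold and 10.8-fold. Tubb5 was seen at 2191 against 213.7 CPM in IL-12 and 2432 against 186.4 CPM in control cells. Cytotoxic effector genes were lower, at 0.544 and 0.694 of the other cells, with Ccl5, a T cell chemokine, at 2761 against 6921 CPM in IL-12 and 435.2 against 2217 CPM in control cells. Ccl5 was the lowest of the 4 most abundant. Nkg7 stood at 0.772 and 0.656, Gzmb at 0.645 and 0.868 (0.702 to 1.06), and Ccl4 at 0.559 and 0.562 (0.279 to 1.01). By share of cells Ccl5 was seen in 73.3% of cycle-rich and 80.7% of other IL-12 cells. In control cells these shares went the other way, at 83.3% and 63.0%. Exhaustion genes stood at 0.724 and 0.595. T cell identity genes stood at 0.797 and 0.747, and neutrophil markers at 0.731 in IL-12 and 0.182 in control cells.

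Within the cycle-rich cells the S and G2M calls separated genes of both kinds, scored or not. In IL-12 cells the S to G2M ratio was 1.39 (1.30 to 1.48) for other replication genes and 0.661 (0.636 to 0.687) for other mitosis genes, and in the 12 control cells 1.29 (1.03 to 1.599) and 0.558 (0.489 to 0.636). Mki67 was seen in 98.4% of cycle-rich G2M and 88.4% of cycle-rich S IL-12 cells. Replication-dependent histones were again lower in S when summed, at 0.652 and 0.680 of G2M, the latter on 5 S and 7 G2M control cells. Hist1h2ao stood at 0.651 in IL-12 cells. In control cells it went the other way, at 3213.5 CPM in S and 2106.5 in G2M (ratio 1.53, 1.19 to 1.96).

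Without the cycle-rich cells the called cells lay nearer to G1 on the scoring lists and on the other replication, other mitosis and histone genes. No G1 cell was cycle-rich, so only called cells were left out. For the scoring lists, and for Mki67, Top2a and Pcna among them, the fall thus follows from how those cells were picked. The S list had an S to G1 ratio of 2.27 in both libraries, where all cells gave 2.64 in IL-12 and 2.49 in control cells. The G2M list had a G2M to G1 ratio of 1.82 in IL-12 and 1.73 in control cells, where all cells gave 2.55 and 2.28. Other replication genes then stood at 1.24 (1.17 to 1.30) and 1.31 (1.17 to 1.46) for S over G1, other mitosis genes at 1.17 (1.14 to 1.21) and 1.10 (1.03 to 1.18) for G2M over G1, and replication-dependent histones at 1.18 in both for G2M over G1. Mki67 G2M to G1 was 2.61 (1.69 to 4.16) in IL-12 and 2.27 (1.11 to 4.95) in control cells, and S to G1 1.55 and 1.07 (0.44 to 2.603). Top2a stood at 3.33 and 3.54 for G2M over G1, less than the 7.62 and 8.56 of all cells, and Pcna at 2.22 and 2.57 for S over G1, where all cells gave 2.52 and 2.85. Neutrophil markers stood at 0.658 (S) and 0.606 (G2M) over G1 in IL-12 and 0.290 and 0.206 in control cells. These cells, 2191 IL-12 and 291 control, are the bulk of all cells called S or G2M.

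**Figure D4:**
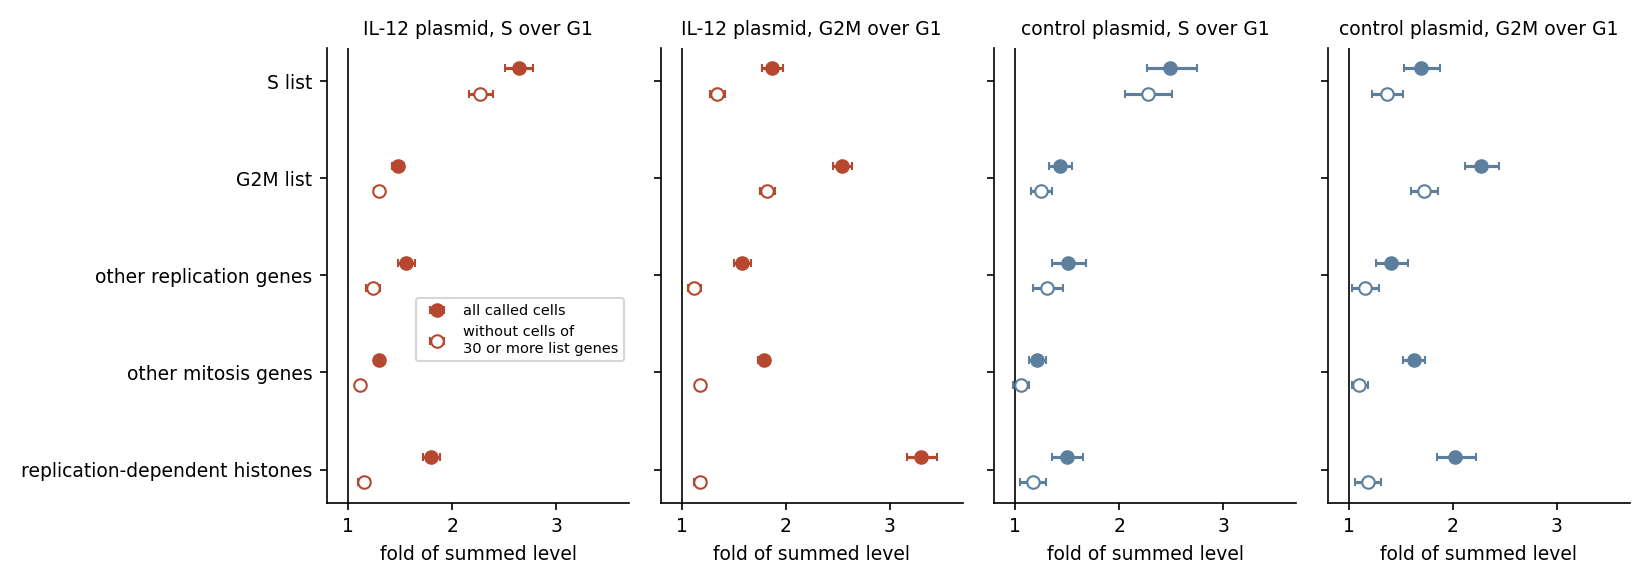
Summed level in S or G2M cells over that in G1 cells (x axis, fold) for 5 gene groups, IL-12 plasmid in red and control plasmid in blue; filled points are all called cells, open points leave out cells with 30 or more list genes, bars are 95% counting intervals. Replication-dependent histones in G2M IL-12 cells lie at 3.30 with those cells and 1.18 without them, and the S list in S IL-12 cells at 2.64 with them and 2.27 without.

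With depth made equal, the gap between phases was one of degree. After thinning each cell to 1000 UMIs, 3 or more list genes were seen in 45.2% of called and 15.7% of G1 IL-12 cells, and in 50.5% of called and 19.7% of G1 control cells. At full depth 100% and 98.7% of called and G1 IL-12 cells passed the same limit, and 99.7% and 97.96% of control cells. Thinned neutrophils passed it in 6.77% of IL-12 and 5.40% of control cells, but dendritic cells in 46.3% and CD4 T cells in 45.1% of IL-12 cells, against 41.5% of all IL-12 cells classed as CD8 T cells. In control cells CD4 T cells passed it in 31.5% and CD8 T cells in 41.4%. Over all phases the thinned shares were 40.1% in IL-12 and 40.4% in control cells, where the deposited calls had differed by library.

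Outside all gene lists few genes followed the phase in both libraries. For S over G1, none of 3999 such genes measured in both was higher past 1.5-fold in both, and 33 were lower. For G2M over G1, 6 of 4044 were higher in both and 31 lower. Of the genes of the cycle lists 24 of 51 were higher in S and 27 of 52 in G2M in both libraries. These include the S and G2M lists that such phases are called from, so their counts follow in part from the calls. The 6 were H3c11, a histone H3 gene, at 41.5 against 9.53 CPM in IL-12 and 45.2 against 16.4 CPM in control cells; Ezh2, which methylates histone H3, at 1.62 in both; Pde4a, a cAMP phosphodiesterase, at 1.97 and 2.13; Selenoh, a selenoprotein, at 1.58 and 2.27; Rbm14, an RNA-binding protein, at 1.63 and 1.83; and Tlnrd1 at 1.62 and 1.57. Without the deposited cluster 12, described next, Ezh2 (1.44 and 1.49) and Rbm14 (1.41 in IL-12) lay below 1.5-fold.

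Neutrophil markers were lower in called cells, and their sums were not lower by 1.5-fold without 1 deposited cluster. For S over G1, 8 of 10 markers were lower in IL-12 and 9 of 10 in control cells, where 2.1% and 5.7% of measured genes were lower; for G2M over G1, 9 and 10 of 10 were lower, where 2.33% and 6.58% of measured genes were. Summed, they stood at 10944 CPM in S, 10537 in G2M and 17137 in G1 IL-12 cells, and at 3742, 2648 and 13314 CPM in control cells; the part of these transcripts in the phase calls was not tested. S100a8, a calprotectin subunit, stood at 3638, 3466 and 5909 CPM in IL-12 and 1353, 957.6 and 5162 CPM in control cells. Of the deposited cluster 12, 77.6% of 545 IL-12 cells and 43.8% of 32 control cells were called S or G2M. Without it the marker sum for S over G1 was 1.08 in IL-12 and 0.905 in control cells, in place of 0.639 and 0.281, and for G2M over G1 1.08 and 1.31, in place of 0.615 and 0.199. Cstdc5 and Stfa2, stefin-type protease inhibitors, Rdh12, a retinol dehydrogenase, and Cyp4f18, a cytochrome P450, among the 5 lowest for S over G1, were then no longer lower by 1.5-fold in both libraries. Of the Cstdc5 UMIs in G1 cells, 8 of 1267 in IL-12 and 36 of 357 in control lay outside the cluster. Where a cluster holds most UMIs of a gene, a ratio nearer 1 without it follows in part from leaving it out. Penk, the enkephalin precursor gene, stood at 35.8 against 117 CPM (S, G1) in IL-12 and 22.1 against 175.7 CPM in control cells. Its ratio without the cluster was 0.262 (0.224 to 0.306) and 0.113 (0.068 to 0.178). The G1 levels came from few cells, 405 UMIs in 32 IL-12 cells and 171 UMIs in 17 control cells. By share of cells Penk differed less, at 5.53% of S and 6.69% of G1 IL-12 cells and 6.12% and 11.6% of control cells, with overlapping intervals. Red cell markers stood at 9.49 and 15.1 CPM in S and G2M against 196.2 CPM in G1 control cells, but were seen in like shares of these cells (5.44%, 7.69% and 6.80%). Macrophage markers stood at 224.6 and 580.8 CPM in S and G2M against 326.7 CPM in G1 control cells. In IL-12 cells they were higher, at 687.6, 732.2 and 745.7 CPM in S, G2M and G1. B, NK, dendritic, mast and epithelial markers summed to at most 129.9 CPM each in any phase. None of the 6 B cell markers had a UMI in G1 control cells.

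By treatment, cycle gene levels over all phases were close even though the phase shares were not. The summed IL-12 to control ratio was 1.004 (0.967 to 1.04) for the S list, 1.02 (0.990 to 1.05) for the G2M list, 0.990 (0.948 to 1.03) for other replication and 1.14 (1.11 to 1.17) for other mitosis genes. Of single genes 5 of 26 measured S list genes were higher and 3 lower, and 9 of 28 G2M list genes higher and 8 lower, where 11.9% of all 6906 measured genes were higher and 36.7% lower with a median log2 ratio of -0.32. Within S cells 5 of 31 S list genes were higher and 9 lower, against 14.1% and 36.8% of all measured genes, and within G2M cells 14 of 40 G2M list genes were higher and 9 lower, against 15.2% and 34.5%. Within G1 cells 3 of 17 other mitosis genes were higher and 5 lower, against 14% and 33.5%. Mki67 averaged 43.1 CPM in IL-12 and 70.3 CPM in control cells, a ratio of 0.613 (0.526 to 0.718). Top2a stood at 60.8 and 78.2 CPM, and Pcna at 98.3 and 73.0 CPM, a ratio of 1.35 (1.17 to 1.56). The summed levels of the markers thus pointed in different directions between the plasmids. For Mki67 this rests on few cells, since 12 cycle-rich control cells held 155 of its 205 control UMIs. In the other cells Mki67 stood at 13.4 CPM in IL-12 and 17.8 CPM in control. Of all cells classed as CD8 T cells, with a sequenced receptor or not, 11.6% had a Mki67 UMI in each library. Top2a was seen in 21.2% of IL-12 and 20.3% of control CD8 T cells, and Pcna in 42.0% and 31.9%.

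Histone genes stood at both ends of the cycle list genes when ranked by plasmid. Replication-dependent histones summed to 1.43-fold (1.38 to 1.48) the control level, 1.20-fold in S, 1.63-fold in G2M and 0.999-fold in G1 cells. This sum rests on the cycle-rich cells, 105 IL-12 and 12 control, at 13106 and 8326 CPM. In the other cells the histone sums were close, at 783.2 CPM in IL-12 and 772.3 CPM in control. Of single histone genes 4 of 18 were higher and 7 lower, where 11.9% and 36.7% of all 6906 measured genes were. The count of lower genes was thus near the share of all genes. Hist1h2ap (106 against 18.2 CPM), H2ac6 (33.1 against 5.83 CPM), H2ac4 (12.8 against 2.40 CPM), Fen1, the flap endonuclease of replication (18.4 against 4.46 CPM), and Hist1h2ao (701.1 against 225.6 CPM) were the 5 highest in IL-12 over control cells. The 5 lowest were H4c3 (2.39 against 11.999 CPM), H4c8 (9.60 against 28.8 CPM), H4c4 (21.4 against 62.1 CPM), Cdk6, a G1 kinase (83.0 against 234.8 CPM), and Foxo1, a transcription factor of quiescence (107.7 against 289.0 CPM). The named H2A genes were thus higher and the named H4 genes lower in the same cells, though they were named for their place in this ranking. The plasmid, the pool of mice and the library cannot be told apart in these ratios.

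In the IL-12 library a larger share of cells was called in larger clones. Cells that the deposited table labels as clones over 10 cells were called S or G2M in 84.0% (82.4 to 85.6) of 2175 IL-12 and 69.8% (62.5 to 76.5) of 179 control cells, and smaller clones in 78.1% (74.6 to 81.4) of 599 and 65.7% (59.7 to 71.3) of 271. The 4 largest IL-12 clones, of 618, 585, 257 and 229 cells, were called in 82.5%, 85.6%, 82.9% and 83.0%, and the largest control clone, of 90 cells, in 72.2%. Of 19 IL-12 clones with 10 cells or more, 18 held all phases, with called shares of 66.7% to 91.2%. Cycle-rich cells went the other way. They were 2.99% (2.31 to 3.79) of the larger and 6.68% (4.81 to 8.98) of the smaller IL-12 clones, and 0.559% (0.014 to 3.07) and 4.06% (2.04 to 7.15) in control cells. They came from 49 of 448 IL-12 and 11 of 179 control clones. By cluster they were 3.76% of 2209 IL-12 cells in cluster 5, 2.69% of 409 control cells in cluster 8 and 3.49% of 545 IL-12 cells in cluster 12; clusters 5 and 8 are each almost wholly of 1 library.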

How the data were processed

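Per the submitters' processing notes, reads were handled with Cell Ranger 2.1.0, STAR 2.6.1 and Partek on the mm10 genome. The authors deposited log2(CPM + 1) values per cell and gene (11407 genes), and a receptor cell table of phase scores, phases, classes, clusters and clone labels; the sources used here do not state how each score was made. That table's library names set the treatment; its identity column reads IL12 for every cell, and its treatment column calls the control cells Isotype where the labels give control plasmid. UMIs were recovered from the steps of the log2 values (whole within 0.1 for all but 12 of 13883686 IL-12 and 7 of 4251108 control values); table genes held 61.4% and 61.1% of the UMIs of these cells, 19697013 for IL-12 and 2916885 for control. Cells were joined by barcode (3224 of 3224 with the same class, 3212 with the same cluster). Levels are UMIs summed over cells, as CPM; ratios carry exact conditional Poisson 95% intervals and shares exact Clopper-Pearson intervals, both for counting error only; log2 ratios add 1 CPM. Phases were also scored with Seurat 5.3.0 in R 4.3.3, and cells thinned to 1000 UMIs (seed 7). Statistics used Python 3.11.15, numpy 2.4.6, scipy 1.17.1 and pandas 2.3.3, and the ratios of summed UMIs were checked on simulated data. Those data were Poisson sums, as the intervals assume. They could not check the intervals where the UMIs of a gene lie in few cells.

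Of 426 list symbols 416 were found, 39 through RefSeq synonyms. The cells, lists and comparisons were chosen with earlier results of these data known. Named genes are Mki67, Top2a and Pcna, up to 4 genes per list with the most UMIs, outside the lists up to 10 highest and 5 lowest past 1.5-fold in both libraries, and the 5 highest and 5 lowest cycle list genes by treatment; exceptions are said in the text. Doublets were not called. Alternatives tried cover the scoring, depth, clusters, largest clones, deepest cells, cell weights, scaling, pseudocount, thresholds and phase make-up.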

Additional observations from a re-analysis of the deposited data

Results flagged for a closer look

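Tcf7, the transcription factor of stem-like T cells, pointed in opposite directions in the libraries: it stood at 10.3 CPM in S and 15.9 CPM in G1 IL-12 cells, a ratio of 0.645, and at 41.1 and 18.5 CPM in control cells, a ratio of 2.22. Gzma, a granzyme, did so for G2M over G1: 158.7 against 383.7 CPM in IL-12 cells, a ratio of 0.414, and 1901 against 951.2 CPM in control cells, a ratio of 1.999. The control G2M value of Gzma came from 1892 UMIs in 24 of 156 cells, and Tcf7 was seen in 16 of 147 control S cells. With 1 pooled library per plasmid the differences between the libraries were not tested. Dixon's check for a value far from the others was not applicable, since no group holds 4 samples.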

How the results depend on the processing

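No paired analysis was possible because each plasmid has 1 pooled expression library and no result comes from a test. Replicates could not be left out for the same reason. Alternatives that leave out cycle-rich cells, change their limit, thin to 3000 UMIs, score receptor cells alone or drop cluster 12 from the marker sums were chosen after seeing the data. No cell lay in cluster 11, so leaving out clusters 11 and 12 leaves out cluster 12. Of the 120 alternatives for main results 53 stayed within counting error or 1.5 times the count and 67 did not; unless a value shows otherwise, the cause was not tested.

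The share called S or G2M in IL-12 cells was 79.4% with all cells scored here, 78.0% thinned to 1000 UMIs and 51.9% with receptor cells scored alone, where control cells had 39.1%. Other replication genes, S over G1 in IL-12 cells, came to 1.40 by mean per-cell CPM, 1.45 without the deepest 5% of cells and 1.24 without cycle-rich cells (1.31 in control). Other mitosis genes, G2M over G1, came to 1.54, 1.59 and 1.17 under these settings and 1.91 without cluster 12 in IL-12 cells, and to 1.43, 1.46 and 1.10, and 1.74 without the largest clone, in control cells. Neutrophil markers reversed without cluster 12, to 1.08 (S) and 1.08 (G2M) over G1 in IL-12 and 1.31 (G2M) in control cells. For IL-12 over control, other replication genes came to 1.04 without cluster 12, 0.883 without cycle-rich cells and 0.907 with control phase shares; other mitosis genes to 1.09 without the largest clone, 1.10 without cycle-rich cells and 1.09 with control phase shares.

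Genes past the fold, at first 142 higher and 138 lower for S and 205 and 154 for G2M over G1 in IL-12 cells, and 213, 239, 240 and 279 in control cells, fell to 51, 14, 89 and 17 in IL-12 and 39, 85, 45 and 92 in control cells at 2-fold. With any UMI they were 667, 489, 774 and 538 in IL-12 and 1891, 1686, 1808 and 1844 in control cells. A pseudocount of 10 CPM gave 59, 41, 103 and 50 in IL-12 cells and 116 (S) and 142 (G2M) higher in control cells. Without cycle-rich cells 85 (S) and 102 (G2M) were higher in IL-12, and without cluster 12 154 (S) and 172 (G2M) were lower in control cells.

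Cells with list genes, thinned, were 91.1% of called and 79.7% of G1 IL-12 cells at 1 gene or more and 12.9% and 1.05% at 5, and 94.4%, 87.8%, 14.9% and 2.72% in control cells. At all UMIs with 3 genes they were 100% and 98.7% in IL-12 and 99.7% and 97.96% in control cells; at 3000 UMIs 96.6% and 80.4%, and 99.0% and 85.2%. Without cluster 12 called IL-12 cells stood at 47.6%. Cycle-rich shares of IL-12 cells were 4.58% at 25 and 2.78% at 40 genes. For genes and lists not counted as main, 149 of 210 alternatives kept their value, 58 moved and 3 reversed, the neutrophil markers above.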

Other observations

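The deposited activation score also differed by phase. It averaged 0.018 ± 0.466 in S, 0.032 ± 0.474 in G2M and 0.134 ± 0.562 in G1 IL-12 cells, and -0.163 ± 0.282, -0.152 ± 0.221 and -0.078 ± 0.391 in control cells (mean ± SD over cells, which are not replicates). The deposited exhaustion score averaged 0.015, 0.010 and -0.016 in S, G2M and G1 IL-12 cells and 0.011, 0.0059 and -0.0052 in control cells, with SDs over cells of 0.162 to 0.195.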
